A study of Mus musculus with 8 samples.

Results

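The cytosolic ribosomal protein genes were 70 of the 21180 gene symbols in the deposited table of a mouse array. They were read on 116 of the array's 41174 non-control probes. A probe was taken when the deposited table named it Rpl or Rps followed by a digit, or Rplp0, Rplp1, Rplp2 or Rpsa, and symbols beginning with Rps6k, which are kinases, were left out. By role, 105 of the probes belong to 63 ribosomal protein genes (38 of the large subunit and 25 of the small subunit). A further 8 probes belong to 5 paralogs (Rpl3l, Rpl7l1, Rpl22l1, Rpl39l and Rps4l), 1 to the pseudogene Rps15a-ps4, and 2 to Rps19bp1, which encodes a nucleolar protein that binds RPS19 and is not part of the ribosome.

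The samples were 4 wild-type (WT) livers and 4 livers of miR-223 knockout mice (miR-223KO). All came from males labelled C57BL/6J that ate a high-fat diet for 3 months, so that the diet was common to both groups. Fresh liver RNA was labelled with Cy5 and hybridised against an assorted mouse RNA in Cy3, the same reference on all 8 arrays, with no dye swap. The value of a probe is therefore the log2 ratio of liver over reference, and a fold change is miR-223KO minus WT, the difference of the group means of that ratio on the log2 scale. Slide 1 held replicates 1 and 2 of each group, and slide 2 held replicates 3 and 4. The labels give neither the knockout allele nor whether each sample was 1 mouse, so p-values speak only of the spread among the samples, which may be partly technical. Whole liver holds many cell types, and fewer cells of a type cannot be told apart from less RNA per cell.

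The ribosome translates mRNA in the cytosol. Its small subunit reads the codons and its large subunit forms the peptide bonds, and each ribosomal protein is needed once or, for the acidic stalk proteins, a few times per particle. Nearly all of these mRNAs begin with a run of pyrimidines (a TOP motif) through which mTORC1 adjusts their translation, so that the proteins are made in balance while mRNA levels often stay steady. In liver, ribosomes carry the synthesis of plasma proteins, and several of these mRNAs (Rplp0, Rpl32, Rps18 among them) serve as reference genes in PCR.

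The probes are 60 bases long, and their sequences are shown for the genes on which the results below turn. Rpl28 had the lowest fold change among the ribosomal protein probes tested, Rps7 had groups that did not overlap, Rps26 had its groups apart only when flagged spots were kept, and Rpl22l1 was read by 2 probes with opposite signs, of which 1 is shown. No capitals are used in these 4 probes because no part of them is compared.
Rpl28 A_51_P339103: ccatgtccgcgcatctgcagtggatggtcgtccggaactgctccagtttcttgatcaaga
Rps7 A_51_P127545: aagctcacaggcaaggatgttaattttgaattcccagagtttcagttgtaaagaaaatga
Rps26 A_51_P302675: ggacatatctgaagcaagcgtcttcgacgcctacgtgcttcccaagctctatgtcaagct
Rpl22l1 A_51_P218814: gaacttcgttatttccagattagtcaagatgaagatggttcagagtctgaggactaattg

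Rpl29 had a pair of probes with a long shared run, which most pairs of probes of 1 gene did not have. Both of the following probes hold the same run of 20 bases, in capitals, at bases 6 to 25 of the first and 33 to 52 of the second. The bases next to the run differ between the probes, so both may not read exactly the same transcript.
Rpl29 A_52_P217069: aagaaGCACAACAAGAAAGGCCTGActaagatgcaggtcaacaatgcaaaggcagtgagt
Rpl29 A_52_P505977: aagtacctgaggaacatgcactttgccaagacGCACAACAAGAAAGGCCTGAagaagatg
Rpl7 and Rplp0 were read by probes at separate stretches, with no long shared run.
Rpl7 A_51_P496480: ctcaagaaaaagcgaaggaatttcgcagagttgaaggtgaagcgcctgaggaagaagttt
Rpl7 A_52_P346326: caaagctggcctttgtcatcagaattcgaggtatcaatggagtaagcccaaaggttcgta
Rpl7 A_52_P455580: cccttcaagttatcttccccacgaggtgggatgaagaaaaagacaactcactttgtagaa
Rplp0 A_51_P344103: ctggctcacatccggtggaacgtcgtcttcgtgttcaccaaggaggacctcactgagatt
Rplp0 A_52_P586574: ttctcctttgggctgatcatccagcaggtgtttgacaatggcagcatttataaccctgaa
Ribosomal protein genes have many processed pseudogenes of near-identical sequence, so a probe may also have read transcripts of such copies.

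The ribosomal protein spots were bright, and many carried the scanner software's outlier flag for uneven pixels or for disagreement with replicate spots (a probe on several spots counts as flagged when any of them is). Of the 116 probes, 49 had no flag on any array, 67 had a flag on at least 1 array, and 13 on 4 or more. The share of ribosomal protein probes flagged was 36.2% (42 probes) on miR-223KO replicate 3 and 31.9% (37 probes) on miR-223KO replicate 4. On the other 6 arrays it lay between 5.17% (6 probes, miR-223KO replicate 2) and 22.4% (26 probes, WT replicate 1). Over all non-control probes the share was 1.71% to 5.45%. The 2 most flagged arrays are the miR-223KO arrays of slide 2, and the flag there was mostly uneven Cy5 pixels, on 35 and 36 of these probes. Brightness moved with the flags. Among probes with a mean log2 signal of 10 to 12, 82.9% of ribosomal protein probes and 60.5% of other probes had a flag on at least 1 array. From 12 to 14 the shares were 76.9% and 94.3%. The other probes include 620 outside the deposited table, each flagged on 5 or more arrays. A ribosomal protein probe had to be in that table, so these shares do not compare like with like. No spot was saturated.

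**Figure D1:**
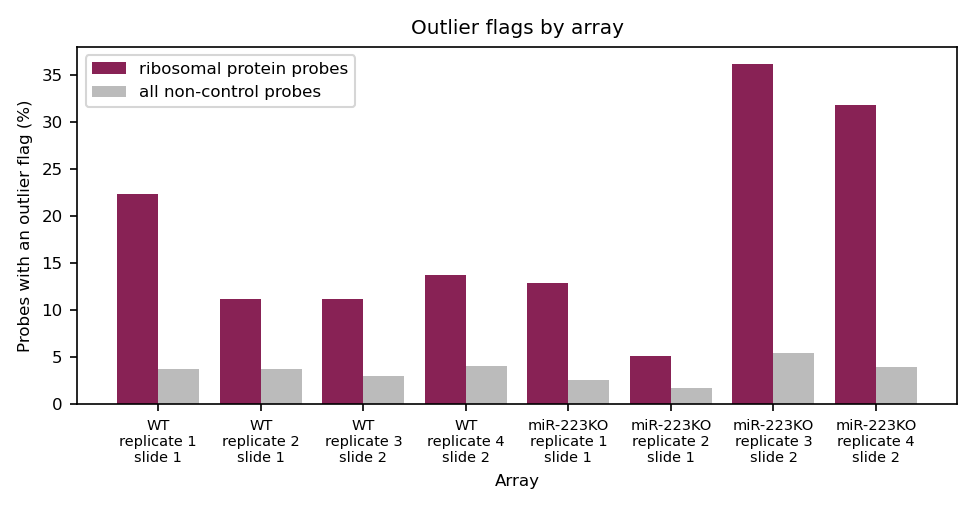
Percentage of probes with an outlier flag (vertical axis) on each of the 8 arrays, for the 116 ribosomal protein probes (dark bars) and all non-control probes (grey bars). The ribosomal protein share is highest on miR-223KO replicates 3 and 4 of slide 2 (36.2% and 31.9%), while the share over all probes stays between 1.71% and 5.45%.

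Flagged spots were left out, and a probe was tested when 4 or more of the 8 arrays read its Cy5 as well above background and each group kept 3 or more unflagged values. By this rule 60 probes of 49 genes were tested, 42 probes were lost to flags, and 14 were too dim in Cy5. Of the 42 lost probes, 26 were short of values only in miR-223KO, 10 only in WT, and 6 in both groups. In all, 21 genes had no tested probe, among them Rpl11, Rpl12, Rplp2, Rps6, Rps26, Rps27a and Rpsa. The dim probes included both probes of Rpl39l and the only probe of Rpl3l, a paralog used in muscle. They also held 1 probe each of Rpl7a, Rpl11, Rpl21, Rpl27, Rpl37, Rps2, Rps6, Rps15a, Rps19, Rps20 and Rpsa. Of the dim probes, 7 were among the 92 probes designed on a RefSeq mRNA and 5 among the 16 on a cDNA clone or other accession. Rps6, Rps2 and Rps19 each had a brighter probe elsewhere, so a dim probe is no measure of the gene.

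No ribosomal protein probe differed between miR-223KO and WT in the limma fit with Benjamini-Hochberg adjustment over 23930 probes. At an adjusted p under 0.05, 0 of 60 probes were called, against 2 of all probes (0.00836%), which were Ctse and Slco1a1 and no ribosomal protein. At an unadjusted p under 0.05 there were 2 of 60, against 4.54% of all probes. Groups that did not overlap were seen for 2 of 60, against 3.04% of all probes, so that both counts were near the background. The median fold change of the 60 probes was 0.02, beside -0.003 over all probes, with 31 probes above 0 (51.7%, against 49.4% of all probes) and 29 below. Fold changes ran from -0.73 (Rpl28) to 0.54 (Rpl34), and 57 of 60 lay within 0.5 of 0, that is 95% against 96.6% of all probes. The median standard error (SE) was 0.23, and for 53 of the 60 probes the 95% confidence interval of the fold change lay within 1 log2 unit of 0. For the other 7, among them Rpl7, Rpl28, Rpl29, Rpl34, Rps16 and Rps19, a change of 1 log2 unit in 1 direction lay inside the interval. The lowest adjusted p of these probes was 0.985.

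**Figure D2:**
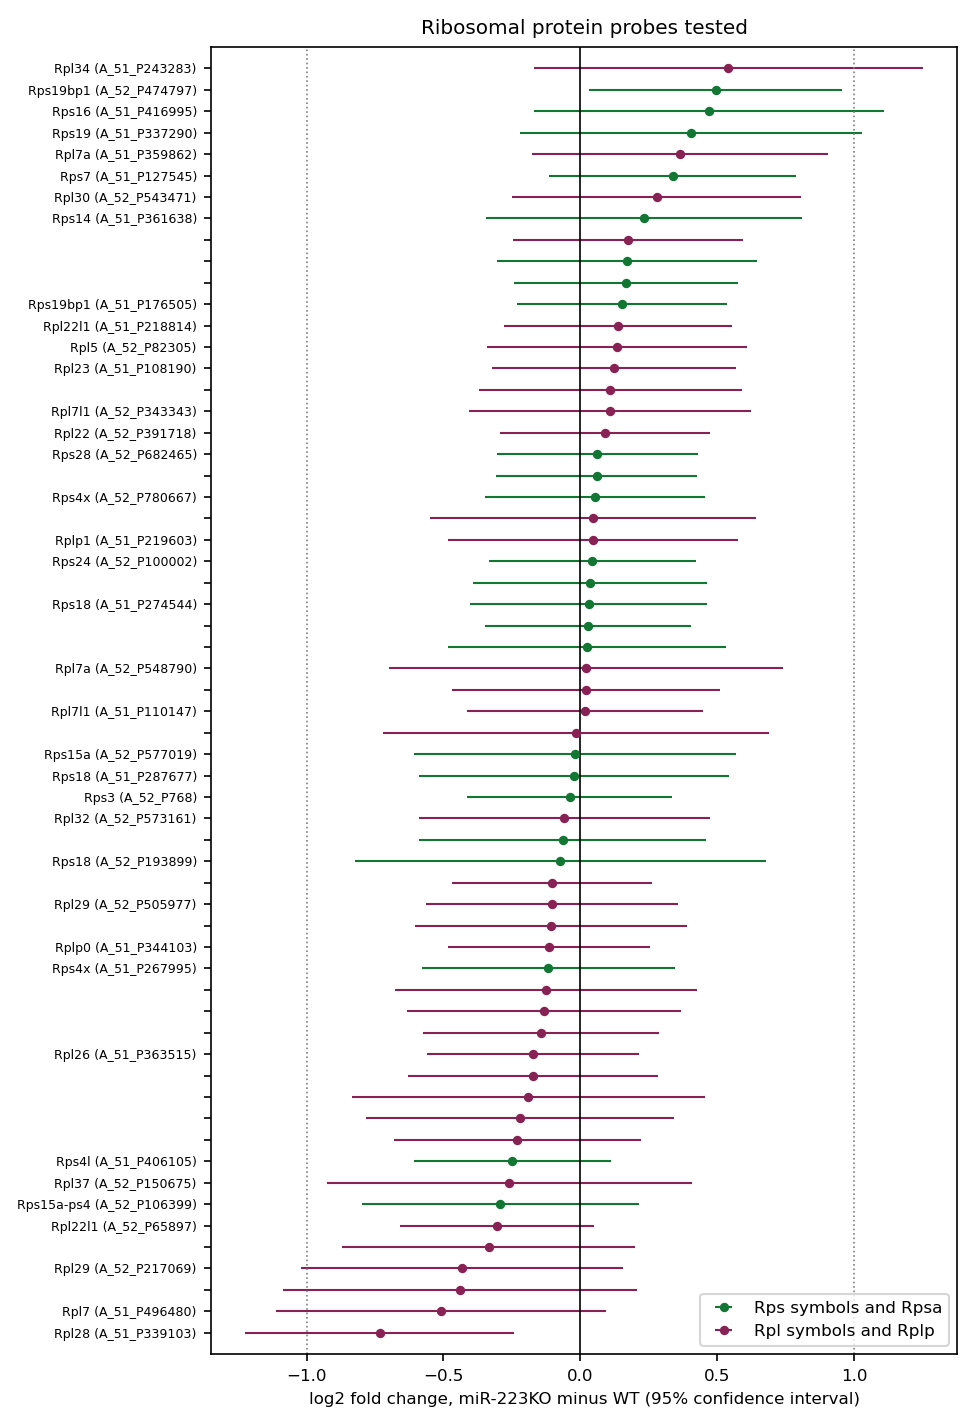
Log2 fold change, miR-223KO minus WT, with its 95% confidence interval (horizontal axis), for each of the 60 tested ribosomal protein probes, sorted by value along the vertical axis, which names the probes of genes described in the text. Green marks Rps symbols, purple Rpl and Rplp symbols, and dotted lines stand at -1 and 1. Points spread on both sides of 0 from -0.73 to 0.54, and the intervals of Rpl28 and of 1 Rps19bp1 probe leave out 0 before adjustment.

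The acidic stalk of the large subunit, which recruits the elongation factors, is built of the products of Rplp0, Rplp1 and Rplp2. Rplp0 was measured on 10 spots per array by probe A_51_P344103. Its log2 ratios were 0.45, 0.19, 0.12 and 0.06 in WT and 0.002, 0.11, -0.03 and 0.28 in miR-223KO. The groups overlapped, and the fold change was -0.12 (SE 0.17, adjusted p = 0.994 by limma). The interval ran from -0.48 to 0.25. Single spots of this probe on 1 array had a median SD of 0.19. The array means, each over several spots, had an SD of 0.17 in WT and 0.14 in miR-223KO, which is not the same measure. Over the 8 arrays 27 spots of this probe were flagged. Rplp1 had 3 values in each group, -0.30, -0.68 and 0.11 in WT and -0.54, -0.01 and -0.18 in miR-223KO. Its fold change was 0.05 (SE 0.25), or 0.24 with flagged spots kept. The only Rplp2 probe was lost to flags, with 2 unflagged values a group.

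For the small subunit, 21 probes were tested, Rps4l included and Rps19bp1 and the pseudogene left out. Their median fold change was 0.03, with 14 above and 7 below 0, and 0 had an unadjusted p under 0.05 or were called by limma. Rps7, a small subunit protein that can also bind MDM2, had unflagged log2 ratios of -0.38, -0.23 and -0.36 in WT and of 0.21, -0.22 and 0.06 in miR-223KO. The groups touched without overlapping, and the fold change was 0.34 (SE 0.21, adjusted p = 0.985 by limma). The flagged value of WT replicate 1 was 0.13, above 2 of the 3 unflagged miR-223KO values, so with flagged spots kept the groups overlapped. Rps16 had the highest fold change of the small subunit at 0.47 (SE 0.30). Its values were 0.08, -0.45 and -0.72 in WT and -0.28, -0.45, 0.95 and 0.21 in miR-223KO, and the high values were both from slide 2.

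Rps19, whose loss in people causes Diamond-Blackfan anaemia, had 3 probes with different outcomes. The tested probe A_51_P337290 read -0.12, 0.27 and -0.09 in WT and -0.24, 1.14, -0.01 and 0.81 in miR-223KO, a fold change of 0.41 (SE 0.29). A second probe, A_52_P404955, was lost to flags, and the third was dim. With flagged spots kept the first 2 gave 0.43 and -0.37, and their gap of 0.81 was the largest between probes of 1 gene in that fit. Rps14 had a fold change of 0.23 (SE 0.27), or -0.003 with flagged spots kept. Rps3, which also has a role in DNA repair, had -0.04 (SE 0.18) on its tested probe. Rps18, used as a PCR reference, was read by 3 tested probes with fold changes of 0.03, -0.02 and -0.07. Their WT values overlapped the miR-223KO values throughout, although probe A_52_P193899 ran from -0.84 to 1.42 in miR-223KO. Rps4x had fold changes of -0.12 and 0.05 on its 2 tested probes, or 0.08 and 0.07 with flagged spots kept.

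For the large subunit, 36 probes were tested, paralogs included. Their median fold change was -0.10, with 15 above and 21 below 0. With flagged spots kept, 60 large subunit probes had a median of 0.001, with 30 above and 30 below 0. In that fit 39 small subunit probes had a median of 0.06, with 25 above and 14 below 0. Over all probes 49.4% were above 0 in the first fit and 49.8% with flagged spots kept. The difference between the subunits was not tested. Rpl28 was the lowest. Its log2 ratios were -0.06, 0.46, 0.79 and 1.16 in WT and 0.01, -0.29, -0.30 and 0.0003 in miR-223KO. WT replicate 1 lay among the miR-223KO values and the other 3 WT arrays lay above them all. The fold change was -0.73 (SE 0.23, 95% interval -1.22 to -0.24), with an adjusted p = 0.985 by limma. It was among the 2 at an unadjusted p under 0.05, and was -0.34 on slide 1 and -1.13 on slide 2. Rpl7 had -0.51 (SE 0.28) on probe A_51_P496480, with 0.55, 0.42 and 0.64 in WT and 0.59, -0.50, -0.54 and 0.56 in miR-223KO. The miR-223KO values fell into a high pair and a low pair, each with 1 array of each slide. Rpl29 had -0.43 (SE 0.28) on probe A_52_P217069, with overlapping groups. Of the 36 tested, Rpl34 had the highest fold change, 0.54 (SE 0.33). It ran from -0.96 to 0.46 in WT and from -0.40 to 1.03 in miR-223KO. Rpl30 stood at 0.28, or 0.04 with flagged spots kept, and Rpl32, a PCR reference, at -0.06 (SE 0.25).

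**Figure D3:**
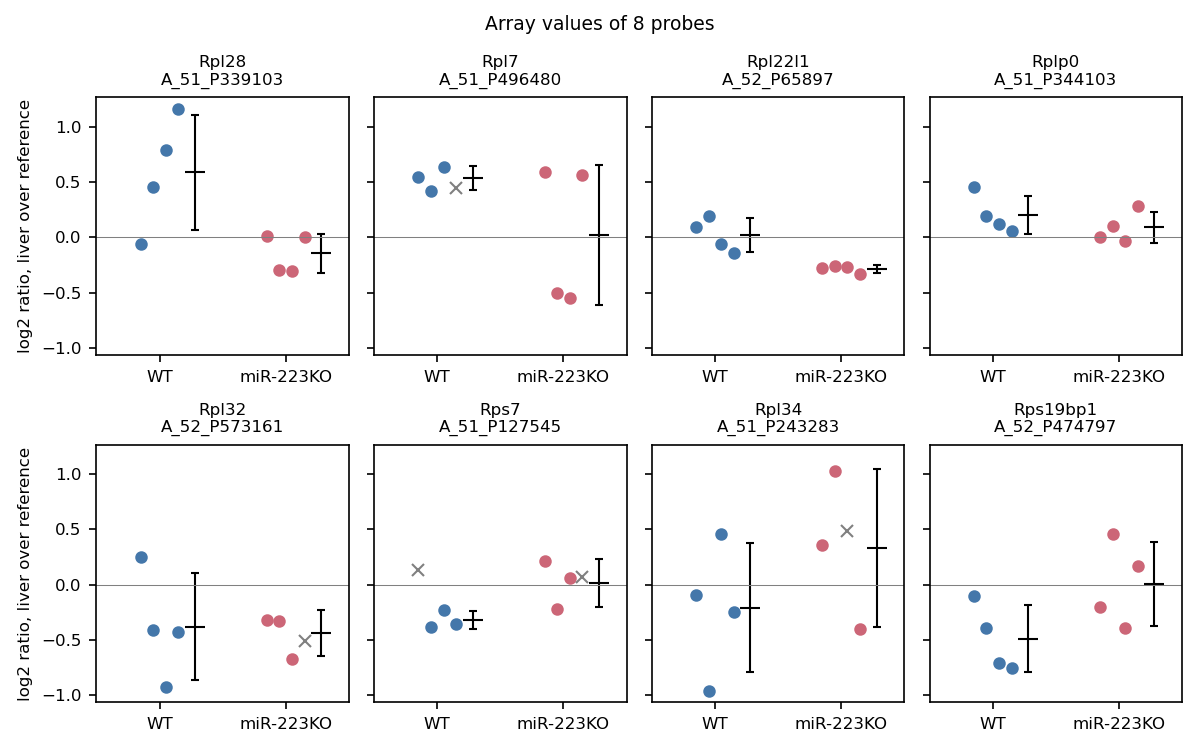
Log2 ratio of liver over reference (vertical axis) on each array for 8 probes, with unflagged values as coloured points, flagged values as grey crosses, and the mean and SD of the unflagged values in black. Rpl28 sits higher in 3 of 4 WT arrays, Rpl22l1 A_52_P65897 and Rps7 have unflagged groups that do not overlap, and Rplp0 and Rpl32 overlap.

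Rpl5 and Rpl11 join the small ribosomal RNA of the large subunit in a complex that can bind MDM2, and Rpl23 and Rpl26 also act on the MDM2 and p53 pathway. Rpl5 had a fold change of 0.13 (SE 0.22), Rpl23 of 0.12 (SE 0.21) and Rpl26 of -0.17 (SE 0.18), all with overlapping groups. A brighter probe of Rpl5 and one of Rpl23 were lost to flags. With flagged spots kept they gave 0.20 for Rpl5 and -0.22 for Rpl23. Rpl11 was not tested, since 1 probe was dim and the other had 2 unflagged miR-223KO values. Kept with its flags, that probe gave 0.44 (SE 0.22, adjusted p = 0.985 by limma). Of the 19 p53 targets tested, such as Cdkn1a (0.29) and Zmat3 (0.30), 0 were called by limma, 0 had an unadjusted p under 0.05, and the median was 0.02.

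Among the paralogs, Rpl22l1, whose mRNA is known to be held down by its paralog RPL22, was read by 2 tested probes. Probe A_52_P65897 read 0.09, 0.20, -0.06 and -0.14 in WT and -0.28, -0.26, -0.27 and -0.33 in miR-223KO, so every miR-223KO array lay below every WT array. Its fold change was -0.31 (SE 0.17, adjusted p = 0.985 by limma). The other probe, A_51_P218814, gave 0.14 (SE 0.20) with overlapping groups. The Rpl22 probe tested gave 0.09 (SE 0.18). A brighter Rpl22 probe was lost to flags and gave 0.33 (SE 0.22) with flagged spots kept. Rpl7l1 had 0.02 and 0.11 on its 2 probes. Rps4l, on 10 spots per array, read 0.13, 0.44, 0.49 and 0.43 in WT and 0.26, 0.08, 0.06 and 0.10 in miR-223KO, a fold change of -0.25 (SE 0.17), and WT replicate 1 lay within the miR-223KO range. Rps4l had -0.16 with flagged spots kept. The pseudogene Rps15a-ps4 had -0.29 (SE 0.24), or -0.08 with flagged spots kept. For Rps19bp1, probe A_52_P474797 read -0.10, -0.39, -0.71 and -0.76 in WT and -0.20, 0.45, -0.39 and 0.17 in miR-223KO. That made 0.49 (SE 0.22, adjusted p = 0.985 by limma), the other of the 2 at an unadjusted p under 0.05. The second probe of Rps19bp1 gave 0.15 (SE 0.18).

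With flagged spots kept, 102 of the 116 probes could be fitted, of 25665 probes in all, and 65 genes had at least 1. Again 0 ribosomal protein probes were called by limma at an adjusted p under 0.05, against 0.0039% of all probes. At an unadjusted p under 0.05 there were 5 (4.9% of 102), against 4.64%, and groups that did not overlap were seen for 2, against 2.72%. The median fold change was 0.04, beside -0.001 over all probes, and 57 probes (55.9%) were above 0, against 49.8%. The 5 were Rpl28 (-0.70) and, above 0, Rpl12 (0.60), Rps26 (0.52), Rps19bp1 (0.49) and Rps28 A_51_P335671 (0.42). In the same fit Rps28 A_52_P55271, which shares a run of 40 bases with that probe, gave 0.09, and Rps28 A_52_P682465 gave 0.06. Rps26, a protein near the exit of the mRNA channel, had values of -0.50, -0.72, -0.79 and -0.98 in WT and 0.07, -0.14, -0.34 and -0.48 in miR-223KO, and all WT arrays lay below all miR-223KO arrays. Its fold change was 0.52 (SE 0.19, adjusted p = 0.985 by limma), and 3 of its 4 miR-223KO values were flagged. Rpl12 had -0.44, -0.49, -0.87 and -0.99 in WT and -0.48, -0.12, 0.40 and -0.16 in miR-223KO, a fold change of 0.60 (SE 0.21). The 42 probes lost to flags had a median of 0.09 in this fit, with 25 above and 17 below 0. The part of the flags in these values was not tested.

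Another 29 probes of 28 ribosomal protein symbols lay outside the rule and could be named through their RefSeq accessions in the scanner files. They include 15 genes with no probe under the rule, such as Rpl3, Rpl8, Rpl10, Rpl13a, Rps23 and Rps27. Each was flagged on 5 to 8 arrays, so their values rest on flagged spots. With flagged spots kept, fold changes ran from -0.56 (Rpl27) to 0.37 (Rpl10), with 13 above and 16 below 0 and a median of -0.03. By limma 0 of them were called at an adjusted p under 0.05, against 0.0039% of all probes in that fit. At an unadjusted p under 0.05 there was 1 of 29 (Rpl27), against 4.64% of all probes. Groups that did not overlap were seen for Rpl37a, lower in miR-223KO, against 2.72% of all probes. Rpl13a, a common PCR reference, stood at 0.05 (SE 0.25). Together with the members this made 145 probes of 85 symbols, and the 131 of these probes with a fit had a median of 0.02. For comparison, the authors' deposited table covers all 116 probes, the 14 dim ones included. Its log2 fold changes for them run from -0.57 to 1.11 with a median of 0.04. The 1.11 belongs to the dim Rps20 probe, whose Cy5 was well above background on 3 of 8 arrays, 0 of them WT.

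Values of the same gene from different probes differed by as much as the fold changes themselves. Of 12 pairs of tested probes of 1 gene, 6 had the same sign and 6 opposite signs, with a median gap of 0.20 and a largest gap of 0.44, that of Rpl22l1. With flagged spots kept there were 43 pairs, 23 of the same sign, and a median gap of 0.26. The Rpl29 probes shown with their shared run gave -0.43 and -0.10, a gap of 0.33. On the first, WT replicate 1 read 0.86 and the other WT arrays -0.49, -0.28 and -0.04. With flagged spots kept the Rpl29 probes shown gave -0.41 and 0.01. The brightest Rpl29 probe, A_52_P326158, was not shown and was lost to flags, and gave 0.12 in that fit. The 3 Rpl7 probes gave -0.49, -0.18 and 0.25 with flagged spots kept. The Rplp0 probes gave -0.07 and 0.19 in that fit.

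The fold changes also differed between the 2 slides, each with at most 2 arrays a group. Only 39 of the 60 tested probes had unflagged values on all 8 arrays, so a slide's value can rest on 1 array of a group. The median over the 60 tested probes was 0.05 on slide 1 and -0.06 on slide 2, and 42 of the 60 (70%) had opposite signs on the slides, against 55.0% of all probes. With flagged spots kept the share was 55.9% of 102, against 54.9%. Rpl34 had 1.22 on slide 1 and -0.50 on slide 2, the latter with 1 miR-223KO array, and 1.20 and -0.001 with flagged spots kept. Rps16 had -0.18 and 1.30, the latter with 1 WT array, and -0.24 and 1.21 with flagged spots kept. Rps7 had 0.38 with 1 WT array and 0.35 with 1 miR-223KO array, and 0.10 and 0.48 with flagged spots kept. Members share their arrays, and the difference between the shares was not tested.

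**Figure D4:**
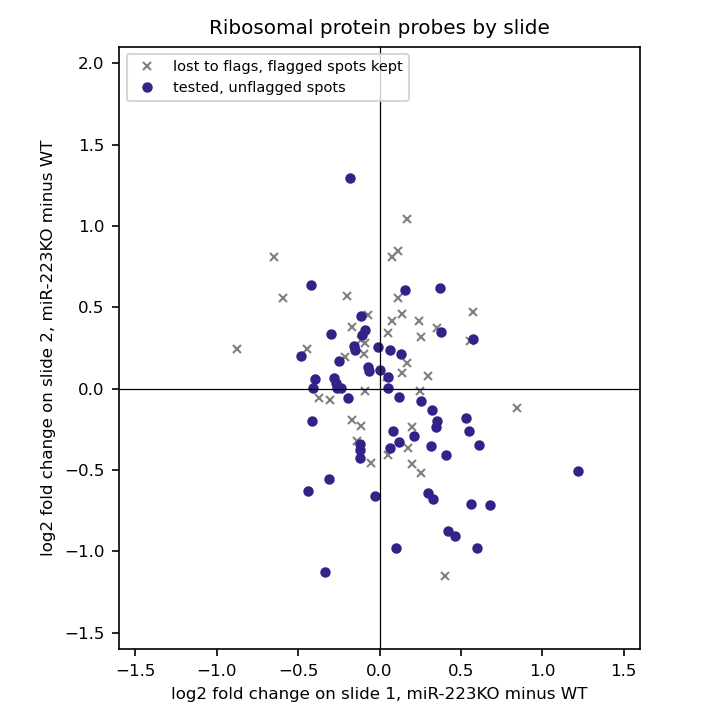
Log2 fold change, miR-223KO minus WT, on slide 1 (horizontal axis) and slide 2 (vertical axis) for ribosomal protein probes, with tested probes as dots and probes lost to flags as crosses at their values with flagged spots kept. Of the 60 dots, 42 lie in the quadrants of opposite sign, and Rpl34 (1.22 and -0.50) and Rps16 (-0.18 and 1.30) lie farthest out on the 2 axes.

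On 7 of the 8 arrays the median of the ribosomal protein probes lay below that of all probes. The member median minus the median of all tested probes was -0.09 ± 0.08 in WT (SD, n = 4) and -0.08 ± 0.07 in miR-223KO (SD, n = 4). It ranged from -0.20 (WT replicate 2) to 0.01 (miR-223KO replicate 2), and the groups overlapped. Liver over reference, with flagged spots kept, had a median of -0.14 over 102 probes, with means from -0.65 (Rpl7a A_52_P436206) to 0.40 (Rps24 A_52_P537084). Of these, 10 probes were below 0 on all 8 arrays and 1 was above. Of 9 hepatocyte marker genes measured this way, 3 were above 0 on all 8 arrays, with a mean ratio of 1.83 for Alb, 1.21 for Apoa2 and 0.92 for Apoa1. The median of the 9 was 0.35, and the others stood nearer to 0, such as Cps1 (0.16), Ttr (0.13), Tat (-0.08) and Hnf4a (-0.15, 0.19 and -0.23 on 3 probes).

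Other translation genes stood near 0 as well, and 0 of them were called by limma at an adjusted p under 0.05, against 0.00836% of all probes. An unadjusted p under 0.05 was seen for 4.54% of all probes tested. Of 7 elongation factor genes tested 0 had an unadjusted p under 0.05, with a median of -0.10 (Eif5a -0.27, Eef1b2 -0.21). The 14 other TOP mRNA genes had a median of -0.03 (Impdh2 0.48, Btf3 0.50), and 29 initiation and stress response factors 0.07 (Eif2b1 0.54, Eif5b -0.37), and 0 of either list had an unadjusted p under 0.05. Of 56 ribosome biogenesis genes, 1 had an unadjusted p under 0.05, Utp20 (0.62, SE 0.21), and the median was 0.05, with Nolc1 at -0.47. The 25 mTORC1 and TOP regulators had a median of -0.10, with Pim1 at -0.43 and Mtor at 0.45, the 2 with an unadjusted p under 0.05. The 75 mitochondrial ribosomal proteins had -0.01, with Mrps28 at 0.70, the 1 with an unadjusted p under 0.05, and Mrps27 at -0.57. The 15 PCR reference genes other than ribosomal ones had a median of -0.003, and Gapdh was lowest at -0.75 (SE 0.20) and the only one at an unadjusted p under 0.05, with Tfrc at 0.32.

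Marker lists give the RNA of cell type markers beside these values, not cell numbers. By limma 0 of their genes were called, against 0.00836% of all probes. An unadjusted p under 0.05 was seen for 4.54% of all probes tested. Of 18 hepatocyte markers listed, 9 were in the deposited table and 6 were tested. All 6 were below 0 (median -0.38, 2 at an unadjusted p under 0.05). Their mean level was 0.82 to 1.89 on WT arrays and 0.37 to 0.68 on miR-223KO arrays. In the fit that keeps flagged spots, 7 of 9 were below 0, the median was -0.14, and the levels overlapped, at 0.42 to 0.85 in WT and 0.31 to 0.70 in miR-223KO. The median was 0.21 for 15 Kupffer cell and macrophage markers and 0.17 for 15 endothelial markers, of which 2 and 3, all above 0, had an unadjusted p under 0.05. It was -0.01 for 12 neutrophil, -0.06 for 11 T and NK cell, 0.05 for 9 B and plasma cell and -0.02 for 12 stellate cell and fibroblast markers, with 1 such gene in each of the first 3 lists and 0 in the last. For 8 cholangiocyte markers it was -0.11 and for 4 erythroid markers -0.21, with 0 such genes in both. The part of cell makeup in the ribosomal protein values was not tested.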

How the data were processed

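Liver RNA (Cy5) was hybridised against an assorted mouse total RNA (Cy3) on 8 Agilent arrays (design 014868), which were extracted with Feature Extraction 12.0.3.1 (protocol GE2_1200_Jun14, grid build mm9), per the file headers. The deposited scanner files hold spot and background intensity values, and the deposited table of 40646 probes holds log2 ratios by the authors. Its deposited log2 fold change equals the difference of its group means to within 5.2e-07.

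Median intensity signals were background-corrected by normexp (offset 50) after flagged local backgrounds were replaced by the array median, and normalised by loess within each array. Controls and outlier-flagged spots had weight 0, flagged spots were left out, and repeat spots were averaged per probe. Fits used limma 3.58.1 (lmFit and eBayes, two-sided) in R 4.3.3, with Benjamini-Hochberg adjustment over all probes tested, and the script was tested on simulated data. Probe sequences come from the deposited table. The members, lists and tests were chosen with earlier results of these data known. Genes named are the 6 with the largest fold change in each direction, with a gene represented by its brightest tested probe, probes past the test, a fixed set of 33 symbols (8 without a probe under the rule), and the 2 smallest p-values of each pathway list. Others given were chosen after their values were seen. The reported fit did not pair samples by replicate number, and whether the numbers mark pairs is not known. A gene that the naming rule takes is not reported here.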

Additional observations from a re-analysis of the deposited data

Results flagged for a closer look

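Among 56 groups of 4 values, 3 held 1 array far from the other 3, and chance alone marks about 1 in 20 groups. The groups came from the named tested probes and from the per-array levels and flag shares of the ribosomal protein probes. For Rpl22l1 A_51_P218814, WT replicate 1 read 0.40, with the nearest other WT array at -0.23. For Rps18 A_51_P274544, miR-223KO replicate 1 read 0.61, with the nearest at 0.26. For Rps4x A_51_P267995, miR-223KO replicate 3 read -0.32, with the nearest at -0.14.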

How the results depend on the processing

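The number of ribosomal protein probes past the test was 0 under each of the 28 alternatives run. Their median fold change moved by more than the spread between arrays in 2 of them, to 0.16 with median centring in place of loess, which moved the median of all probes to 0.07, and to -0.0796 without WT replicate 2. It ran from -0.0796 to 0.0524 as each array was left out. With median centring the per-array level of the members was 0.0927 higher in miR-223KO, against 0.005 after loess. The count of all probes called, 2 in the reported fit, was 1 with flagged spots kept, with median centring, with processed signals, with the deposited table's ratios and with gene means, 6 with a normexp offset of 16, and 4 with signal above background required on all 8 arrays. It was 0 within slide 1, 0 within slide 2 and 0 without both miR-223KO arrays of slide 2, an alternative added after the data were seen, and 2 to 5 as each array was left out, with 5 without miR-223KO replicate 1. The cause was not tested. With the replicate number as a block, 0 ribosomal protein probes and 3 of all probes were called, and the member median was 0.02. Same-numbered samples had correlations of deviations of -0.02 to 0.05, and differently numbered ones of -0.07 to 0.06. Values this near 0 cannot tell whether the numbers mark pairs. Of 895 values for 33 named probes, 0 passed the test and 73 changed sign, and the lowest adjusted p by limma was 0.481. With 2 unflagged values a group, also added after the data were seen, 91 probes could be tested. Precision was bounded by the number of arrays, and the median SE of the ribosomal protein probes was 0.23 without and 0.22 with the flagged spots.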
